A study of Homo sapiens with 4 samples.

Results

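The H3K27ac peaks at *TBX2* and *TBX3*, a pair of genes for closely related T-box transcription factors, were examined in control (sgCtrl) and *SNHG1*-depletion (sgSNHG1) SK-N-BE(2)C cells. The members were all peaks that overlapped the GENCODE gene body of either gene or the 100 kb on either side of it. There were 61 of them, 31 of the 63699 peaks in the sgCtrl list and 30 of the 50119 peaks in the sgSNHG1 list. *TBX2* had 23 peaks in each list. *TBX3* had 8 in sgCtrl and 7 in sgSNHG1. A start-site peak was one that overlapped the 1 kb on either side of an annotated start of the member gene, and all others lay in the gene body or in the flanks. The counterpart of a peak was a peak of the other list that overlapped it by at least 1 bp. Positions are given relative to the first base of the gene along its direction of transcription, so that upstream positions are negative. The peaks were chosen by a measured value, namely a −log10 p above 6 in either list, and the genes were proposed with earlier results of these data in view, so their values are given as a description.

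The cell line SK-N-BE(2)C comes from a neuroblastoma and carries amplified *MYCN*. Cells were transfected with Cas9 and dual guide RNAs together with a reporter plasmid, selected with puromycin and sorted as single cells, and the resulting clones were expanded. The 2 sgCtrl samples carried a non-targeting control gRNA and are labelled wildtype. The 2 sgSNHG1 samples carried *SNHG1* gRNA and are labelled *SNHG1* knockout. Both groups thus share Cas9, puromycin and growth from sorted cells. The authors describe 1 clone with the non-targeting gRNA and several *SNHG1*-depletion clones, so the sgCtrl values may be those of 1 clone. Which clone gave which library is not given in the sources used here. The authors combined the 2 replicates of a group before they called peaks, so each group is represented by 1 list, the spread between replicates is unknown and no difference was tested. A difference between clones, in the number of copies of a locus or in H3K27ac per copy cannot be told apart in these lists.

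T-box factors bind DNA through the conserved domain that gives the family its name. TBX2 and TBX3 act mainly as repressors and are known for silencing cell cycle inhibitors such as *CDKN1A* and the ARF product of *CDKN2A*. TBX2 belongs to the core regulatory circuitry (CRC) of adrenergic neuroblastoma, the group of factors that bind their own and each other's enhancers. Each gene has a T-box neighbour, *TBX4* beside *TBX2* and *TBX5* beside *TBX3*. *TBX2* lies on the long arm of chromosome 17, a region that is often gained in neuroblastoma. H3K27 acetylation marks active promoters and enhancers.

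*TBX2* (ENSG00000121068.14) runs on the plus strand of chromosome 17 from 61399843 to 61409466 in GRCh38, and its window also holds the end of *BCAS3*, the antisense RNA *TBX2-AS1*, *LINC02875* and all of *TBX4* (61452404 to 61485110). *TBX3* (ENSG00000135111.16) runs on the minus strand of chromosome 12 from 114670255 to 114684175, and its window holds *TBX3-AS1* and several short non-coding genes, while *TBX5* lies outside it. The GRCh38 sequence of 300 bp around the summit is shown, on the plus strand, for 4 peaks on which the results below turn. The first was the upstream *TBX2* peak that was lower in sgSNHG1 by more than counting error, the next pair lay on the *TBX4* side and were lower as well, and the last, beyond the 3′ end of *TBX3*, was higher. Capitals mark an E-box (CACGTG) in the second, and the other sequences held none of the motifs searched.
*TBX2* peak at -15710, chr17:61383983-61384282: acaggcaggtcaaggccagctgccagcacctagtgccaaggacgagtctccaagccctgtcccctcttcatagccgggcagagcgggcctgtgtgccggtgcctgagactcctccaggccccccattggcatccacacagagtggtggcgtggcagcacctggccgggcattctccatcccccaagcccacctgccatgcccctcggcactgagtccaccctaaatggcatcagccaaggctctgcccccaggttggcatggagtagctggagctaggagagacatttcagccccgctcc
Intergenic *TBX2* peak at 43652, chr17:61443345-61443644: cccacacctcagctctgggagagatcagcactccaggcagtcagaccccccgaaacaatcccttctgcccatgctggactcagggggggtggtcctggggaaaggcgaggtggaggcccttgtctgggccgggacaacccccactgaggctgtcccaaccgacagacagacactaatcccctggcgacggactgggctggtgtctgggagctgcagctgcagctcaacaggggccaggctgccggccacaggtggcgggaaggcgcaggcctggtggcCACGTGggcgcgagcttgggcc
*TBX2* peak at 51929 beside the *TBX4* start, chr17:61451622-61451921: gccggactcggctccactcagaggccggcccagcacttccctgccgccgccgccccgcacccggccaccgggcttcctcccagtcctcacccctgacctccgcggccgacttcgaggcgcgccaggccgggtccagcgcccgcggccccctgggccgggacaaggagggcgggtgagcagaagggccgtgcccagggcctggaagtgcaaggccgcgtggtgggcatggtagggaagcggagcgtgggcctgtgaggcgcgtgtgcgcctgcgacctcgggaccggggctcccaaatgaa
*TBX3* peak at 16708 beyond the 3′ end, chr12:114667317-114667616: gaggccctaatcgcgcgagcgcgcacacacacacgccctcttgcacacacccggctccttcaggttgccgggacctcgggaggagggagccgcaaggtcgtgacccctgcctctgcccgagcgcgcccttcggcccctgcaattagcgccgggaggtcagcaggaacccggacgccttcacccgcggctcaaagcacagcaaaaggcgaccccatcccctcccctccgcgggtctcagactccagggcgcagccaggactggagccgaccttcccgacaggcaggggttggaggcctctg

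The lists give the fold enrichment of each summit, a ratio of the signal over a local background that the peak caller estimated, with its −log10 p. Together these yield the pileup (how many fragments lie over the summit) and the local background in fragments. The pileup was a whole number at 99.6% of the peaks of either list and at all 61 members. The median fold enrichment was 3.75 in sgCtrl and 3.89 in sgSNHG1, the median pileup 55 and 52 fragments and the median local background 12.9 and 12.1 fragments. The depth of each sample is unknown. At the 39156 pairs of peaks shared by the lists, the median log2 ratio of the pileups was -0.19, so the relative pileup used below is the log2 ratio of sgSNHG1 over sgCtrl minus that median. Its 95% interval is an exact binomial one on the 2 pileups and covers counting error only. Duplicate reads had been kept, so fragments are not independent molecules.

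Both lists marked the start of *TBX2* with tall peaks whose fold enrichment was unremarkable. In sgCtrl the peak over the first exon (61399923 to 61401188) had a pileup of 295 fragments over a local background of 81.7, a fold enrichment of 3.58. In sgSNHG1 the same place held a peak from 61399920 to 61400624 with a pileup of 307 over a background of 72.3, a fold enrichment of 4.20. A shorter piece from 61400875 to 61401171, with a pileup of 193 and a fold enrichment of 2.58, lay under the remaining part of the sgCtrl peak. The start-site peak thus appeared as 1 peak of 1266 bp in sgCtrl and as 2 peaks in sgSNHG1. By pileup it stood at percentile 98.9 of the sgCtrl list and 98.7 of the sgSNHG1 list. By fold enrichment it stood at 45.0 and 58.2, a move of 13.2 percentage points against a median of -0.35 over the 12450 protein-coding genes with start-site peaks in both lists, of which 55.6% had a lower percentile in sgSNHG1. The relative pileup was 0.25 (0.015 to 0.49), close to the median of 0.19 over all pairs within 1 kb of a protein-coding start (start-site pairs), and it stood at percentile 67.0 among start-site pairs of similar GC content.

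The other start-site peak of *TBX2* had its summit at -554 in an exon of *TBX2-AS1*, an antisense RNA that overlaps the gene and also has an annotated start nearby. Its pileup was 274 fragments in sgCtrl and 266 in sgSNHG1, and its fold enrichment 3.54 and 3.80. The relative pileup was 0.15, with an interval from -0.099 to 0.40 that spans 0. Its percentile among start-site pairs of similar GC content was 49.4, in the middle of the range. The *TBX2* start was therefore marked to a similar height in both lists, and both of its pairs had a somewhat higher fold enrichment in sgSNHG1. ChIP-seq does not tell the strands apart, so signal here cannot be assigned to *TBX2* or to *TBX2-AS1*.

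**Figure D1:**
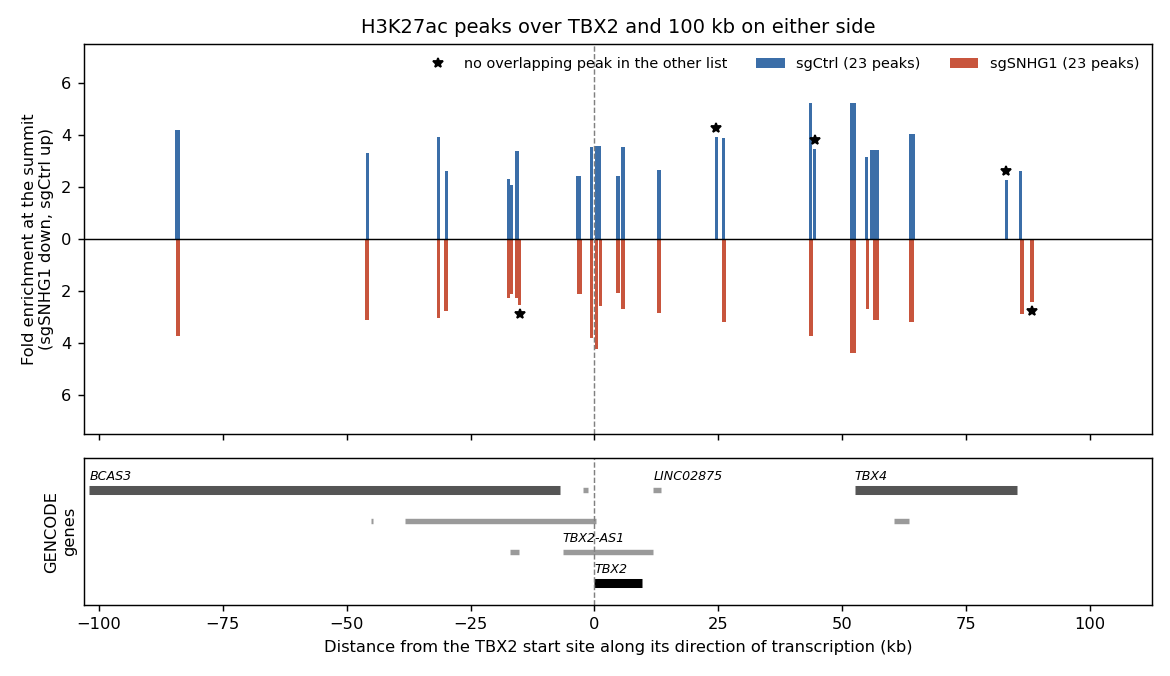
H3K27ac peaks over *TBX2* and 100 kb on either side. The upper panel plots the fold enrichment at the summit (vertical axis, sgCtrl upward, sgSNHG1 downward) against the distance from the *TBX2* start in kb, with bars as wide as the peaks and stars over peaks with no overlapping peak in the other list. The lower panel shows the GENCODE genes. The 23 peaks of either list lie at largely the same places, with 3 stars in sgCtrl and 2 in sgSNHG1, and the bars of the shared pairs from 43652 bp to 64048 bp are taller in sgCtrl, whereas those at 13051 bp and 86116 bp are taller in sgSNHG1.

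Away from the start, the *TBX2* peaks were mostly lower in sgSNHG1. Of the 18 shared pairs that were not start-site pairs, 14 had a lower fold enrichment in sgSNHG1 and 17 had a relative pileup below 0. The median relative pileup over all shared pairs is 0 by definition. Over pairs beyond 1 kb of a protein-coding start its lower and upper quartiles were -0.34 and 0.14. Over all shared pairs of the lists, 54.9% had a lower fold enrichment, and 62.1% of those more than 1 kb from every protein-coding start. The relative pileup was below 0 by more than its interval at 7 of the 18 pairs and above 0 by more than its interval at none of them. Over all pairs these shares were 9.20% and 14.7%. All pairs include those within 1 kb of a protein-coding start, whose median relative pileup was higher (0.19). The shares for pairs farther away alone were not computed. Pairs with larger pileups have narrower intervals and pass more easily, and the median percentile of the pileup of these *TBX2* peaks was 75.8 in sgCtrl and 65.1 in sgSNHG1. The median relative pileup of the 18 pairs was -0.39, against -0.11 for all pairs beyond 1 kb of a protein-coding start. These groups are not quite alike, since 3 of the 18, at 51929, 56756 and 64048, lie within 1 kb of a *TBX4* start. Over all pairs within 1 kb of a protein-coding start the median was 0.19, and 45.0% had a lower fold enrichment.

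Within the gene body the *TBX2* lists shared 2 pairs, both over coding exons. The peak at 5931 (61405193 to 61406051) had a pileup of 226 fragments in sgCtrl and 139 in sgSNHG1. Its fold enrichment was 3.54 and 2.66 and its relative pileup -0.51 (-0.82 to -0.20), a difference beyond counting error. The peak at 4856 had a pileup of 173 in sgCtrl and 122 in sgSNHG1, with a relative pileup of -0.31 whose interval reached 0.031. Both were in the same direction, and opposite to the start-site pairs a few kilobases away. Among other pairs of similar GC content, the relative pileup stood at percentile 19.4 for the peak at 5931 and 40.6 for that at 4856. Over the lists, pairs within 1 kb of a protein-coding start had a median relative pileup of 0.19, and pairs beyond it -0.11. A difference in this direction between the 2 kinds of pair was thus general.

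Upstream of *TBX2*, in and beyond the 3′ part of *BCAS3*, a gene first described through its amplification in breast cancer, sgCtrl held 8 peaks and sgSNHG1 9. All 8 sgCtrl peaks had a counterpart, and the covered length was nearly equal at 4079 bp in sgCtrl and 4095 bp in sgSNHG1. Of the 8 pairs, 7 had a relative pileup below 0, where its median over all shared pairs is 0 by definition. It was below 0 by more than its interval at 1 of them. This was the peak at -15710 whose sequence is shown above. Its pileup was 147 fragments in sgCtrl and 84 in sgSNHG1, its fold enrichment 3.39 and 2.26, and its relative pileup -0.61 (-1.02 to -0.22). The sgSNHG1 list held a further peak (61384489 to 61384948) that began 17 bp beyond the end of the sgCtrl peak. It had a pileup of 96 fragments and no counterpart in sgCtrl. The T-box core peak at -84403 had a pileup of 88 in sgCtrl and 60 in sgSNHG1, a relative pileup of -0.36 with an interval from -0.86 to 0.13. The 7 upstream pairs other than the one at -15710 differed by less than counting error.

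Downstream of *TBX2* lies *TBX4*, a T-box gene best known from hindlimb and lung development. There sgCtrl held 11 peaks covering 8207 bp and sgSNHG1 9 covering 5976 bp, or 0.728 times as much. All 8 shared pairs on this side had a relative pileup below 0, where its median over all shared pairs is 0 by definition. It was below 0 by more than the interval at 5 of them. These 5 formed a run from 43652 to 64048 that reached from the intergenic space across the start of *TBX4*.

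The intergenic peak at 43652, which holds the E-box shown above, had a pileup of 69 fragments in sgCtrl and 38 in sgSNHG1 and a relative pileup of -0.67 (-1.28 to -0.076). The peak at 51929, beside the annotated start of *TBX4*, had a pileup of 156 and 84 and a relative pileup of -0.70 (-1.10 to -0.31). Its fold enrichment was 5.22 in sgCtrl and 4.38 in sgSNHG1, and its relative pileup stood at percentile 2.10 among start-site pairs of similar GC content. This was the lowest relative pileup among the 27 pairs of both loci. In the body of *TBX4*, the pair at 54939 went from a pileup of 114 to 62, the pair at 56756, over a coding exon beside another *TBX4* start, from 120 to 72, and the pair at 64048 from 106 to 62. Their relative pileups were -0.69, -0.54 and -0.58, each with an interval below 0. The local background was lower there as well, so the fold enrichment of these 3 pairs differed less, from 3.17 to 2.67, from 3.44 to 3.11 and from 4.04 to 3.17. The remaining downstream pairs, at 13051 over *LINC02875*, at 26217 and at 86116, differed by less than counting error in pileup. The fold enrichment was higher in sgSNHG1 at 13051 (2.66 and 2.85) and at 86116 (2.64 and 2.86).

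Only 5 of the 46 *TBX2* peaks had no counterpart. The 3 in sgCtrl, all downstream, were at 24566, 44393 and 82966, with fold enrichments of 3.91, 3.47 and 2.27 and pileups of 44, 44 and 79 fragments. The nearest sgSNHG1 peaks lay 1181, 336 and 2608 bp away. The 2 in sgSNHG1 were the further peak beside that at -15710 and a peak at 88408 with a pileup of 46 and a fold enrichment of 2.41. The share of sgCtrl peaks with a counterpart was 87.0% at *TBX2* (exact interval 66.4% to 97.2%), and over all peaks 38.5% of the sgCtrl list and 20.8% of the sgSNHG1 list had none. That interval takes neighbouring peaks of 1 list as independent draws, which they are not, and measures no spread between samples. Peaks near a start are kept more often: within 1 kb of a protein-coding start 20.3% of the sgCtrl peaks had none, and farther away 47.4% in the sgCtrl list and 24.8% in the other. The peaks at *TBX2* were therefore largely shared. Their number was equal, where 64.2% of the protein-coding genes with a window peak in sgCtrl had fewer in sgSNHG1, and the covered length of 15576 bp in sgCtrl compared with 12962 bp in sgSNHG1 (ratio 0.832). Over 13279 protein-coding genes with at least 5 sgCtrl peaks in their windows the median ratio was 0.793, and the *TBX2* ratio stood at percentile 57.8 among them.

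**Figure D2:**
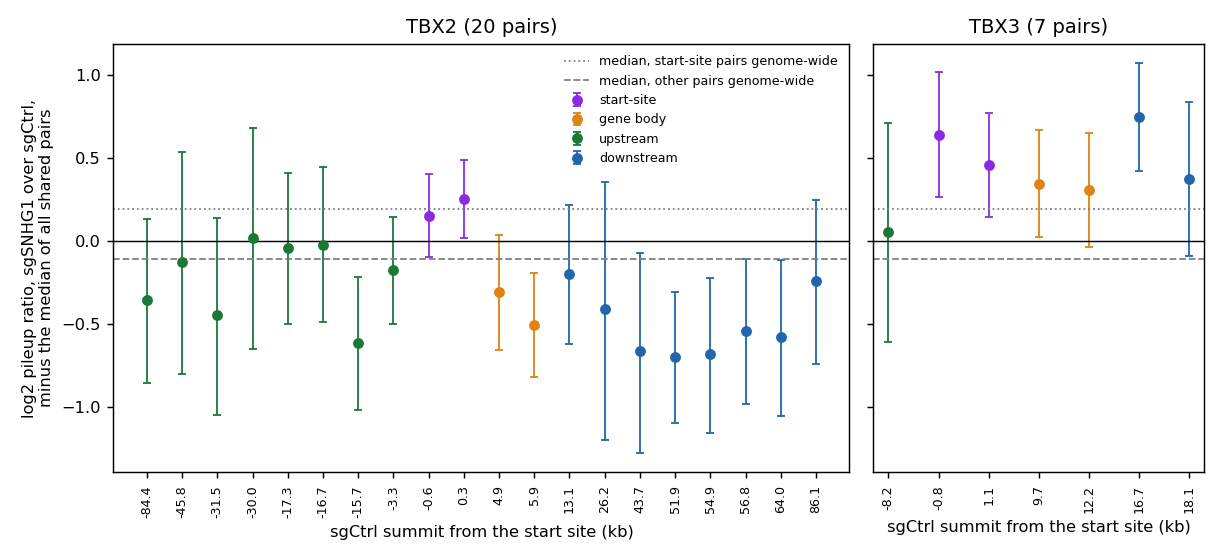
Relative pileup of each shared pair at *TBX2* (20 pairs) and *TBX3* (7 pairs), ordered by the position of the sgCtrl summit in kb from the start. Points are the log2 ratio of sgSNHG1 over sgCtrl minus the median of all shared pairs, bars are 95% exact intervals of counting error, and the grey lines are the medians of start-site and other pairs over the whole lists. The *TBX2* points lie above 0 at the start and below it in the gene body and on the *TBX4* side, whereas all 7 *TBX3* points lie above 0.

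*TBX3* differed in the opposite direction in pileup. All 7 of its shared pairs had a relative pileup above 0, from 0.05 to 0.74 with a median of 0.37. Over all shared pairs the median is 0 by definition, with quartiles of -0.27 and 0.30. Of the 7 pairs, 4 were above 0 by more than the interval, where 14.7% of all shared pairs were above 0 by more than theirs. Larger pileups pass more easily, and the median pileup percentile of the *TBX3* peaks was 87.1 in sgCtrl and 92.0 in sgSNHG1. Of the 4 pairs, 2 were start-site pairs, a kind whose median relative pileup over the lists was 0.19. The local background was also higher in sgSNHG1 at each of the 7 pairs, with a relative log2 ratio from 0.38 to 0.62. The 7 peaks are neighbours within 27092 bp in sgSNHG1, so these are not 7 separate observations of a shift. As the background rose together with the pileup, the fold enrichment was lower in sgSNHG1 at 5 of the 7 pairs, where 54.9% of all shared pairs were lower, with a median log2 ratio of -0.18. For *TBX3* the direction therefore depended on whether the pileup or the fold enrichment was read.

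The start of *TBX3* carried 2 peaks in each list. The taller one, over the 5′ part of the gene, spanned 114682555 to 114683599 in sgCtrl and 114682533 to 114684027 in sgSNHG1, so that its length was 1045 bp and 1495 bp. Its pileup was 157 fragments over a background of 29.6 in sgCtrl and 188 over a background of 40.3 in sgSNHG1, and its fold enrichment 5.16 and 4.58. The relative pileup was 0.45 (0.14 to 0.77). By fold enrichment it stood at percentile 76.7 of the sgCtrl list and 65.9 of the sgSNHG1 list, and by pileup at 93.9 and 95.3. The peak at -752, in an intron of the antisense RNA *TBX3-AS1*, had a pileup of 105 and 143 and a fold enrichment of 3.67 and 3.68. Its relative pileup was 0.64 (0.26 to 1.02), at percentile 89.9 among start-site pairs of similar GC content, where the taller peak stood at 62.4. Both start-site pairs were thus higher in sgSNHG1 by more than counting error in pileup, with a fold enrichment that was lower in the first and nearly equal in the second.

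Over the *TBX3* gene body, 2 pairs were found over coding exons. The peak at 9737 (114674076 to 114674874) had the highest fold enrichment of the 61 members, 6.32 in sgCtrl, against 5.59 in sgSNHG1, while its pileup was 156 and 173 fragments and its relative pileup 0.34 (0.021 to 0.66). The peak at 12157 had a pileup of 137 and 148 and a relative pileup of 0.30 with an interval from -0.041. Beyond the 3′ end, the peak at 16708 (114667249 to 114667824), whose sequence is shown above, had a pileup of 136 in sgCtrl and 199 in sgSNHG1. It was higher in sgSNHG1 on both measures, with a relative pileup of 0.74 (0.42 to 1.07) and a fold enrichment of 5.14 and 5.59. Among other pairs of similar GC content it stood at percentile 99.2. The pair at 18124 differed by less than counting error, with a pileup of 76 and 86.

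Upstream of *TBX3* there were few peaks. The pair at -8202 in an intron of *TBX3-AS1* had a pileup of 43 fragments in sgCtrl and 39 in sgSNHG1, a relative pileup of 0.05 with an interval from -0.61 to 0.71. The peak at -77642 was the only *TBX3* member without a counterpart. It was present in sgCtrl alone, with a pileup of 22 and a fold enrichment of 3.18, and its −log10 p of 6.72 was just above the threshold of 6 at which the lists begin, and the nearest sgSNHG1 peak was 69035 bp away. The other 7 of the 8 sgCtrl peaks (87.5%, exact interval 47.3% to 99.7%) had a counterpart. This interval, too, takes neighbouring peaks as independent and measures no spread between samples. Peaks covered 4580 bp at *TBX3* in sgCtrl against 5052 bp in sgSNHG1, and the ratio of 1.10 stood at percentile 90.7 among protein-coding genes with at least 5 sgCtrl peaks.

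**Figure D3:**
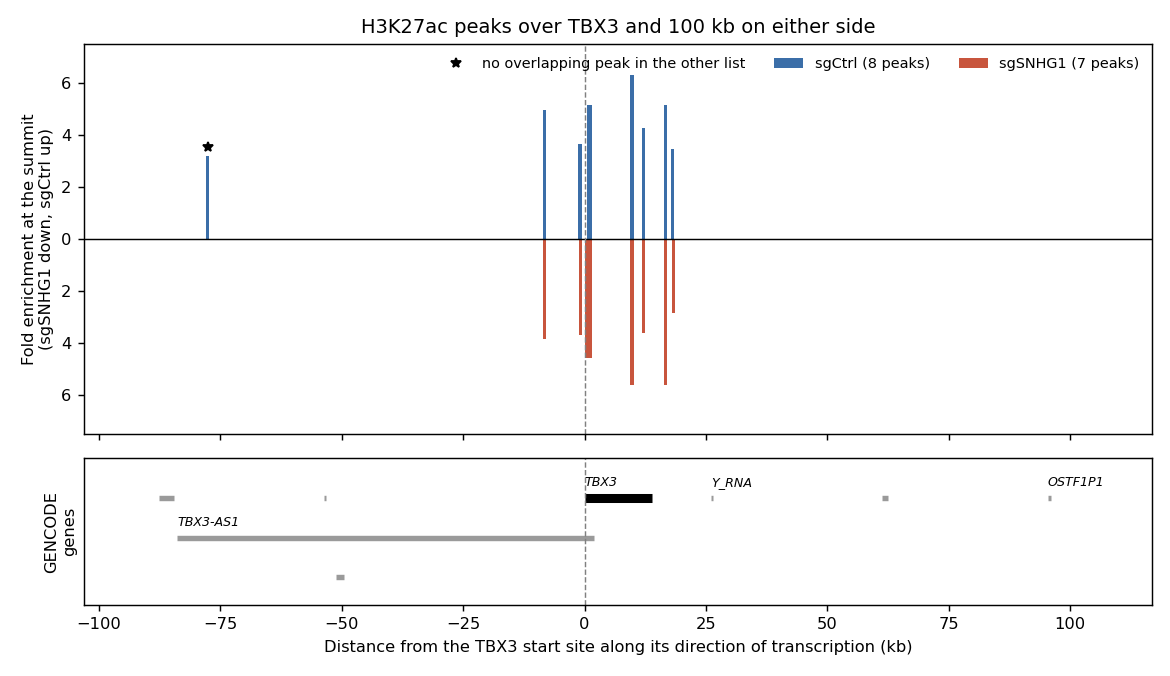
H3K27ac peaks over *TBX3* and 100 kb on either side, drawn as for *TBX2*, with distance in kb along the direction of transcription of *TBX3* and the GENCODE genes below. Except for the starred sgCtrl peak at -77642 bp, the peaks of both lists lie between -8334 bp and 18124 bp from the start, and only the bars at 16708 bp and at the -752 bp start-site peak are as tall or taller in sgSNHG1.

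The 2 loci also differed in how the local background moved. Whether an input library was used is unknown, so the background may come from the same fragments as the pileup. It is therefore not a separate line of evidence. At *TBX2* the relative log2 ratio of the background was between -0.53 and -0.02 at all 20 pairs, with a median of -0.17. The pairs with the largest difference were those downstream of the gene. At *TBX3* the median was 0.56. Beyond the windows, in the flanking 1 Mb on either side, the median relative background was 0.04 over 39 pairs near *TBX2* and 0.02 over 7 pairs near *TBX3*. The median relative pileup there was -0.0028 and 0.05. The shifts within the windows were thus not seen at the median of their surroundings, although 7 pairs are few. In the same flanks of *TBX2* the number of peaks was 75 in sgCtrl and 49 in sgSNHG1, a ratio of 0.653, whereas the window itself held 23 in each. Near *TBX3* the flanks held 18 and 16 peaks. The part of a change in copy number in these values was not tested.

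**Figure D4:**
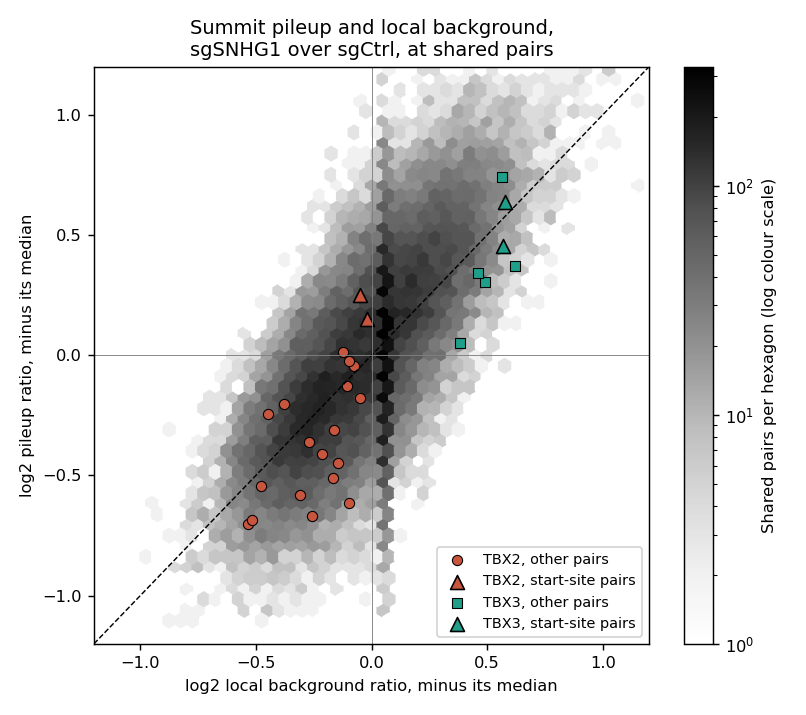
Relative pileup (vertical axis) against relative local background (horizontal axis), both as log2 ratios of sgSNHG1 over sgCtrl minus the median, for the 39156 shared pairs (grey hexagons, darker with more pairs on a log scale) and the pairs at *TBX2* (orange) and *TBX3* (green), with triangles for start-site pairs. The dashed line marks equal change, and the dark vertical band near 0 gathers pairs at like background in both lists. All *TBX3* pairs lie to the right of 0, and all *TBX2* pairs to the left of it.

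When the peaks of each list were stitched across the gaps usual in calling super-enhancers and ranked by summed fold enrichment times length, the region over *TBX2* ran from 61368153 to 61426147 in sgCtrl and from 61368246 to 61413141 in sgSNHG1, with 13 peaks in both. It covered 7247 bp at rank 650 of 27452 regions in sgCtrl and 6255 bp at rank 918 of 24977 in sgSNHG1. The region around the start of *TBX4* went from rank 634 with 6 peaks to rank 1392 with 5. Ranked by covered length instead, both moved the other way, *TBX2* from rank 451 to 308 and the *TBX4* region from 672 to 568, so their direction depends on the measure. The region over *TBX3* held 7 peaks in both and went from rank 780 to rank 436, and by covered length from 979 to 444. Start-site peaks were kept in this stitching, and the lists differ in length, so ranks are given with the number of regions.

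Among the 17 genes of the T-box family, 10 had a start-site peak in sgCtrl and 7 in sgSNHG1, and 6 had one in both lists (*TBX2*, *TBX3*, *TBX4*, *TBX20*, *TBX21* and *MGA*). Of all protein-coding genes, 67.0% had a start-site peak in sgCtrl and 65.9% in sgSNHG1. *TBX6*, *TBX10*, *TBX15* and *TBXT*, the brachyury gene, had one in sgCtrl only and *TBX1* in sgSNHG1 only. Of the protein-coding genes with a start-site peak in sgCtrl, 6.97% had none in sgSNHG1. *TBX5*, *TBX18*, *TBX19*, *TBX22*, *EOMES* and *TBR1* had none in either list, and in its own window *TBX5* had 0 peaks in sgCtrl and 2 in sgSNHG1. By pileup, the start-site peaks of *TBX2* and *TBX3* were the tallest of the family in both lists, with *TBX4* (percentile 93.7) close behind *TBX3* (93.9) in sgCtrl. In sgSNHG1, *TBX4* stood at 76.4. Of the 6 genes with peaks in both lists, the fold enrichment percentile was higher in sgSNHG1 at 3 and lower at 3.

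**Figure D5:**
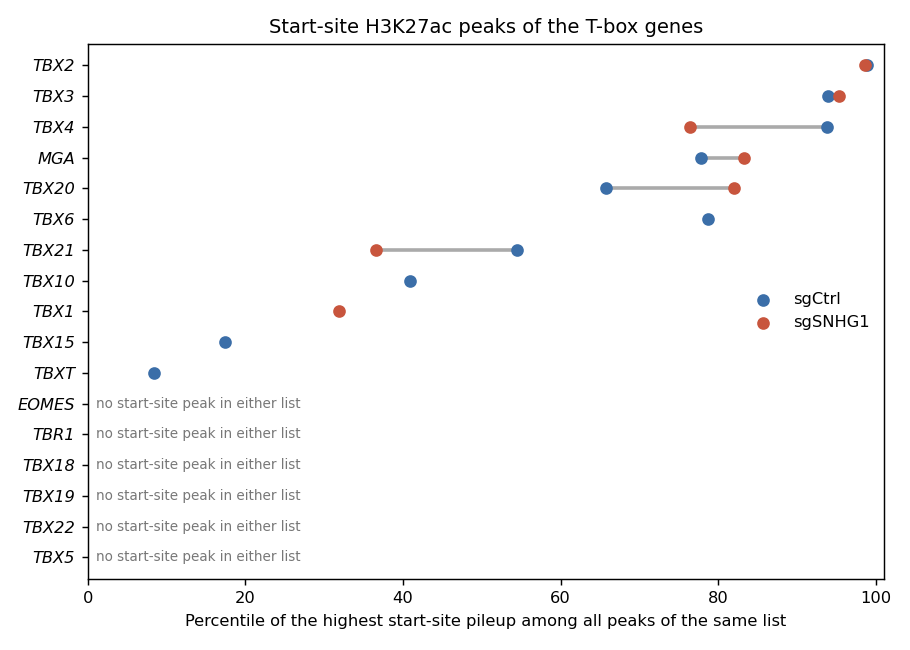
Percentile of the tallest start-site peak, by pileup among all peaks of the same list, for the 17 T-box genes in sgCtrl (blue) and sgSNHG1 (red), with grey lines joining genes that had a peak in both. *TBX2* (98.9 and 98.7) and *TBX3* (93.9 and 95.3) lie at the top in both lists, *TBX4* moves from 93.7 to 76.4, and 6 genes have no start-site peak.

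Within the CRC, *MYCN*, *HAND2*, *ISL1*, *GATA3* and *TBX2* all had start-site peaks in both lists. The percentile of the fold enrichment was lower in sgSNHG1 at 4 of these 5 genes. Of protein-coding genes with start-site peaks in both lists, 55.6% had a lower one. *TBX2* was the exception, although the fold enrichment itself was also higher in sgSNHG1 at *ISL1* (8.97 and 9.43). *HAND2*, which encodes a basic helix-loop-helix factor, went from percentile 56.9 to 18.5 and *GATA3* from 37.8 to 25.7. *MYCN* (82.8 and 79.4) and *ISL1*, a LIM homeobox gene (93.7 and 93.3), moved little. By pileup, *TBX2* (98.9 and 98.7), *GATA3* (98.5 and 97.7), *ISL1* (95.7 and 97.6) and *MYCN* (100 in both) remained near the top of either list, and *HAND2* went from 98.6 to 88.4.

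Of 6 genes known as targets of TBX2 or TBX3 or of factors linked to them, 5 had a start-site peak in sgCtrl and 4 in sgSNHG1. *CDKN1A*, which encodes the cell cycle inhibitor p21, had a start-site peak with a pileup of 32 fragments and a fold enrichment of 4.02 in sgCtrl and none in sgSNHG1, and the number of peaks in its window was 13 and 4. *CDKN2A*, the INK4A and ARF gene, had a low peak in both (fold enrichment 4.41 and 4.24), and *CDKN2B* had none in either. *CDH1*, the E-cadherin gene, had a fold enrichment of 4.34 in sgCtrl and 3.64 in sgSNHG1 at pileups of 29 and 23. *NDRG1*, a gene that TBX2 represses in breast cancer cells, had 3.78 and 2.70, although its pileup was 32 and 38. *FOXM1*, which encodes a factor that drives entry into mitosis, was higher in sgSNHG1, with 4.15 and 5.69 and a pileup of 54 and 84. Of the 4 genes with a peak in both lists, 3 had a lower percentile of fold enrichment in sgSNHG1 and 1 a higher one, where 55.6% of protein-coding genes had a lower one.

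Markers of the labelled cell type carried the mark. Of 12 adrenergic neuroblastoma genes, 11 had a start-site peak in sgCtrl and 12 in sgSNHG1, where 67.0% and 65.9% of all protein-coding genes had one. None of 3 leukocyte genes, 2 endothelial genes or *ALB*, the albumin gene of hepatocytes, had one in either list. Of 5 mesenchymal genes, *TWIST2*, *VIM* and *YAP1* had one in both, as had the epithelial genes *EPCAM* and *CDH1*. At the 11 adrenergic genes with a peak in both lists, the fold enrichment percentile was lower in sgSNHG1 at 10 and higher at 1. Of all protein-coding genes with peaks in both, 55.6% had a lower one. The median change was -3.71 at the adrenergic genes and -0.35 over all. The percentile was also lower at 2 of the 3 mesenchymal genes and at the 2 epithelial genes.

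The 300 bp around each summit were searched on both strands for the T-box core AGGTGTGA, the E-boxes CACGTG and CAGATG and the GATA letters AGATAA, which do not contain each other. The T-box core was found in 1 of the 23 *TBX2* peaks of each list, the peak at -84403, and in no *TBX3* peak, where 2.48% of all sgCtrl summit windows and 2.22% of all sgSNHG1 windows held it. CACGTG, the letters that MYC proteins bind with MAX, occurred in 1 *TBX2* peak, the intergenic peak at 43652, and in 1 *TBX3* peak, the start-site peak at -752, in both lists, and in 6.48% and 6.23% of all windows. CAGATG occurred in 2 *TBX2* peaks in sgCtrl and 6 in sgSNHG1 and in 1 *TBX3* peak of each list, where 17.6% and 16.3% of all windows held it. As the summits of a pair can lie apart, the windows searched in the lists were not the same. AGATAA was found in no member and in 2.54% and 2.88% of all windows.

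The loci differed in covered length. Peaks covered at least as many bases of the *TBX2* window as of the windows of 90.3% of 19962 protein-coding genes in sgCtrl and 92.2% in sgSNHG1. For the *TBX3* window these shares were 54.0% and 64.3%. The protein-coding genes more than 1 Mb away whose covered length and start-site fold enrichment were most like those of *TBX2*, by the distance between their percentiles in both lists, were *MFAP2* (2.24), *LSM2* (2.88) and *SPOCD1* (2.95). For *TBX3* they were *ACSS2* (4.97), *IRGQ* (5.25) and *CENPL* (5.40). At the limits of the windows, the outermost *TBX2* peaks lay between 15413 and 23247 bp inside the window, and the nearest peaks beyond it between 42533 and 48444 bp outside, with fold enrichments of 2.41 to 4.19 inside and 3.00 to 4.09 outside. At *TBX3* the outermost peaks lay between 22326 and 95584 bp inside and the nearest beyond it between 85187 and 603980 bp outside, with fold enrichments of 2.82 to 3.84 and 3.73 to 6.45.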

How the data were processed

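H3K27ac ChIP-seq (antibody ab4729) of 4 SK-N-BE(2)C samples, 2 per group, was analysed. Adaptor removal by the authors used cutadapt and alignment to GRCh38 used BWA. They pooled the replicates within each group and then ran MACS2 on paired fragments at a p-value of 1e-06 with duplicates kept. Whether an input library was used is not given in the sources used here. The deposited lists give, per peak, a fold enrichment (a ratio to the local background), the −log10 of its p-value, and a score that the authors' caller derives from the −log10 p and that was not used further. Depth per sample is unknown.

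The pileup and background were recovered by assuming a pseudocount of 1 and a Poisson p-value, with a tolerance of 0.001 for whole numbers. GC content came from the 500 bp centred on each summit, in 10 bins. A gene has a start-site peak where a peak overlaps 1 kb on either side of an annotated start, and its percentile is that of its highest peak within its list. Overlaps needed 1 bp. Python 3.11.15, numpy 2.4.6, pandas 2.3.3, scipy 1.17.1, pysam 0.24.0, matplotlib 3.10.9, bedtools 2.31.1 and GENCODE 44 were used, and the code was tested on simulated data. The members, gene lists and measures were chosen with earlier results of these data known. Named genes were the members, genes in their windows, the T-box family, CRC genes, targets from general knowledge (1 is not reported here), and for each member the 3 most similar protein-coding genes. Alternatives were a stricter threshold, equal list sizes, other windows, overlaps and start-site distances, and pileup in place of fold enrichment.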

Additional observations from a re-analysis of the deposited data

How the results depend on the processing

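Of 56 alternative values for the 10 summary results of both loci, 5 reversed and 5 moved beyond the counting interval. Only the share with a counterpart was judged by that interval, and the other results by fixed limits on the size of a shift. The share of sgCtrl peaks with a counterpart became 100% at *TBX2* with the gene body plus 10 kb. At *TBX3* it became 100% with a −log10 p of at least 10, with lists of equal size, and with 50 kb or 10 kb flanks, all of which leave out the peak at -77642. The change in percentile of the *TBX2* start-site peak, 13.2 by fold enrichment, was -0.026 by −log10 p and -0.25 by pileup. That of *TBX3*, -10.8 by fold enrichment, was 1.45 by pileup. The median log2 ratio of the *TBX3* pairs, -0.18 by fold enrichment, was 0.37 by relative pileup and 0.54 by pileup relative to pairs of the same kind and GC content, an alternative chosen after seeing the data. The local background by which the fold enrichment is divided was higher in sgSNHG1 at all 7 *TBX3* pairs. At *TBX2* the same alternatives kept the sign (-0.34 and -0.30). Without reversing, the *TBX3* percentile change was -2.10 by −log10 p and -4.54 with lists of equal size, the *TBX2* percentile change was 20.6 with lists of equal size, and the *TBX2* median log2 ratio, -0.18 by fold enrichment, was -0.050 with 10 kb flanks. The *TBX2* peak number ratio, 1 in the report, ranged from 0.810 with a −log10 p of at least 10 to 1.17 with 10 kb flanks. As its main value was 1, this ratio could not be counted as reversed. The *TBX2* covered length ratio ranged from 0.733 with a −log10 p of at least 10 to 0.934 with 10 kb flanks. No paired analysis was possible because in each list the replicates had been pooled before peaks were called, and for the same reason no replicate could be left out.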
